A study of Mus musculus and Rattus norvegicus with 37 samples.

Results

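The 10 genes described here act in the mitochondrial steps that follow the branched-chain keto acid dehydrogenase (BCKDH) complex, and their levels were read in the livers of mice and rats. They are Ivd, Mccc1, Mccc2, Auh, Acad8, Hibch, Hibadh, Acadsb, Pcca and Pccb, and they were chosen by gene symbol, as 10 of the 47929 singly named genes in the mouse tables and of the 28026 in the rat tables. The RNA-seq data cover 37 livers, 21 of mice and 16 of rats. Each value is a count normalized by the authors, who made each of the 4 tables on its own, so levels were compared only between libraries of the same table.

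The mice were female. LNA29 combines inhibitors of miR-29a-3p and miR-29bc-3p, built of locked nucleic acid and injected once under the skin at 20 mg/kg each, and livers were taken in the fed state on day 7. The WT/floxed groups (LNA29, n = 8, and saline, n = 5) pool WT C57BL/6J mice of 9 to 11 weeks (4 LNA29 and 3 saline) with mice carrying floxed Sirt1 alleles of 15 to 20 weeks (4 LNA29 and 2 saline). A floxed saline library had been removed by the authors as an outlier. The SIRT1KO groups (LNA29, n = 4, and saline, n = 4) are livers labelled as lacking Sirt1 in the liver, from mice of the same age as the floxed mice. By the study's methods the floxed and SIRT1KO mice were on C57BL/6J too, so background below means WT or floxed and not the strain. Sirt1 itself lay between 535 and 617 normalized counts in the livers labelled SIRT1KO and between 493 and 699 in the WT/floxed livers. These ranges come from separately normalized tables and were not compared. A count over the whole gene does not show whether a part of it is deleted, so the label was not checked by it. The paper itself measured hepatic Sirt1 in both genotypes by RT-qPCR. The rats were male and fed. Zucker Fatty rats, which carry a mutation of the leptin receptor (Obese, n = 4), were set against Zucker Lean rats (Control, n = 4) at 5.5 months. Zucker Fatty rats of 3 months received BT2, an inhibitor of the BCKDH kinase, at 20 mg/kg each day for 1 week (n = 4) or the DMSO vehicle (n = 4). The replicates are different livers by their labels.

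The branched-chain amino acids leucine, valine and isoleucine lose their amino group and are then decarboxylated by BCKDH, the step that the BCKDH kinase holds back. What follows runs in separate branches inside mitochondria. The liver has little of the transaminase that starts the pathway and is known for oxidizing the keto acids that other tissues release. In the leucine branch, Ivd dehydrogenates isovaleryl-CoA, the biotin enzyme made of Mccc1 and Mccc2 carboxylates methylcrotonyl-CoA, and Auh hydrates methylglutaconyl-CoA on the way to acetyl-CoA and acetoacetate. In the valine branch, Acad8 dehydrogenates isobutyryl-CoA, Hibch splits hydroxyisobutyryl-CoA and Hibadh oxidizes the free hydroxyisobutyrate. Acadsb dehydrogenates methylbutyryl-CoA in the isoleucine branch. Pcca and Pccb form propionyl-CoA carboxylase, a biotin enzyme that takes up the propionyl-CoA left by valine and isoleucine.

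The mature miRNAs that LNA29 is directed at are shown here, as RefSeq gives them on GRCm38.p6, because they define the treatment. The capitals mark the seed, bases 2 to 8 from the 5′ end, which is the same in all of them.
miR-29a-3p: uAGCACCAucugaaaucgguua
miR-29b-3p: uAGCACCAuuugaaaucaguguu
miR-29c-3p: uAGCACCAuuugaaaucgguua
The match to this seed, TGGTGCT, was searched on the transcript strand of the annotated 3′ UTRs of GRCm38. It was found in 2 of the 10 genes, Auh and Acadsb, while 13.6% of the 20979 genes with an annotated 3′ UTR held it. Both matches are shown with up to 8 bases of the UTR on either side and the match in capitals.
Acadsb: aagtatttTGGTGCTtttgcaaa
Auh: gagagtccTGGTGCTtagaggag
The Acadsb match lies at chr7:131445535-131445541 on the plus strand, in the 3′ UTR of its principal transcript. The Auh match lies at chr13:52911667-52911673 on the minus strand, in the 3′ UTR of 1 of 4 annotated coding transcripts with a 3′ UTR and not in the principal one. A match of letters is a description and not a binding site. The longest 3′ UTR of a gene ranged from 180 bases in Mccc1 to 4637 bases in Acadsb.

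The genes lie apart on 8 mouse chromosomes (GRCm38). Acad8 and Pccb share chromosome 9, and Mccc2 and Auh share chromosome 13. No annotated gene overlaps Ivd, Mccc2, Auh, Acad8 or Pccb. Acadsb lies within the annotated span of Fgfr2 on the opposite strand, Pcca overlaps Ggact on the opposite strand, and Mccc1, Hibch and Hibadh overlap predicted or non-coding genes. Strand was not given for the counting, so reads of overlapping exons on opposite strands cannot be told apart.

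In mouse liver all 10 genes were well above the minimum for testing, and the levels per length spanned nearly an order of magnitude. In the 5 WT/floxed saline livers, Hibadh was highest at 11909 ± 882 normalized counts per kb of its principal transcript (SD, n = 5), and its lowest library, 10653, lay above the highest library of Pccb, 5535. Pccb followed at 5160 ± 384 and Ivd at 3841 ± 741. Hibch (2662 ± 448) overlapped with Ivd on 1 side and with Mccc2 (2103 ± 136) on the other. The order among Acad8 (1668 ± 173), Mccc1 (1653 ± 181), Auh (1551 ± 90.0), Pcca (1533 ± 173) and Acadsb (1372 ± 367) did not exceed the spread between livers, since the libraries of each gene overlapped with those of the next.

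**Figure D1:**
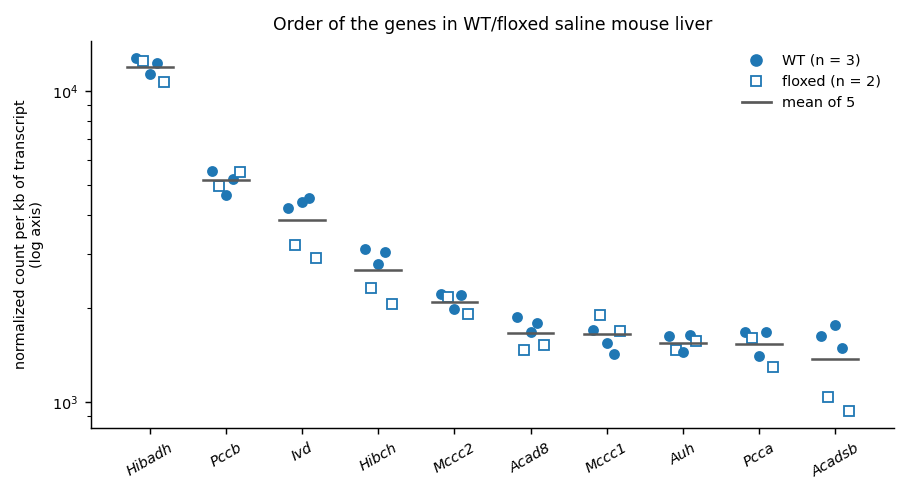
Normalized counts per kb of principal transcript (log axis) of the 10 genes in the 5 WT/floxed saline livers, ordered by the mean, with WT and floxed livers as filled circles and open squares and the mean as a bar. Hibadh stands clear of the others at 11909, and the 5 genes from Acad8 to Acadsb lie close together between 1372 and 1668.

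The proportion of both subunits of each carboxylase was read within each liver. Per kb, Pccb was 3.40 ± 0.479 times Pcca in WT/floxed saline livers (n = 5) and 3.42 ± 0.223 times in WT/floxed LNA29 livers (n = 8), and Mccc2 was 1.28 ± 0.170 and 1.35 ± 0.127 times Mccc1. In the livers labelled SIRT1KO the ratio of Pccb to Pcca was 3.79 ± 0.224 with saline and 3.62 ± 0.352 with LNA29. The ranges of these ratios with and without LNA29 overlapped in every case, and no test was made of them.

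The first question was whether LNA29 changed these genes in WT/floxed liver. The levels were lower with LNA29 for 9 of the 10 genes, by small amounts, and Hibadh was the gene that passed the criteria. Genes with a mean of at least 10 were tested by limma on log2(normalized count + 1), and a gene was called when its p was under 0.05, its adjusted p under 0.2, its mean over 50 and its fold over 1.2. By these criteria 1 of the 10 genes was called, lower, where 4.35% of the 15811 genes tested were called and 1.93% were called lower. The median log2 fold change of the 10 genes was -0.16 and that of all genes tested 0.00, and 49.5% of all genes tested lay below 0.

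Hibadh, the last enzyme of the hydroxyisobutyrate steps of valine breakdown, was at 23230, 20681 and 22497 normalized counts in the 3 WT saline livers and at 22823 and 19442 in the 2 floxed saline livers. In the 8 LNA29 livers it ranged from 15669 to 22306 with a median of 17997. LNA29 replicate 1, at 22306, reached into the saline range, and the other 7 LNA29 livers lay below every saline liver. Hibadh fell by 0.27 on the log2 scale (SE 0.081, adjusted p = 0.144 by limma, two-sided exact permutation p = 0.00855). The difference was -0.23 among WT livers and -0.29 among floxed livers. It lay between -0.31 and -0.24 within the 3 run codes of the library names, each with 2 or 3 LNA29 and 1 or 2 saline livers. The call was lost without any 1 of 7 of the 13 libraries (saline replicates 1, 2 and 4 and LNA29 replicates 5 to 8), at values from -0.26 to -0.24 and adjusted p from 0.214 to 0.285. With the background as a covariate the value was -0.25 (adjusted p = 0.105), under the fold limit, and with no minimum mean the adjusted p was 0.255. Whether the replicate numbers pair the livers is not stated, and with the number as a block the value was -0.19 (adjusted p = 0.755).

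The other genes with an unadjusted p under 0.05 were all lower with LNA29 and did not pass the criteria. They made up, with Hibadh, 4 of the 10 genes, where 13.3% of all genes tested had such a p and 6.5% had it and were lower. Mccc1, the biotin-carrying subunit of methylcrotonyl-CoA carboxylase, was at 3369 ± 467 (n = 8) against 4059 ± 443 (n = 5), which is -0.27 on the log2 scale (SE 0.101, adjusted p = 0.237 by limma). It passed the criteria without LNA29 replicate 1 (-0.31, adjusted p = 0.148) or LNA29 replicate 3 (-0.31, adjusted p = 0.166). Its partner Mccc2 was at 3902 ± 402 against 4464 ± 290, a log2 fold change of -0.20 (adjusted p = 0.262 by limma). Acad8, which opens the valine branch, was at 4120 ± 308 against 4767 ± 495, a log2 fold change of -0.21 (adjusted p = 0.233 by limma). For none of the 10 genes were the LNA29 and saline livers free of overlap, where this held for 1.51% of all genes tested.

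For the remaining genes of the WT/floxed comparison the 95% interval of the pooled groups included 0. Hibch had a log2 fold change of -0.26 (interval -0.53 to 0.02), with LNA29 livers from 3049 to 4958 and saline livers from 3791 to 5662. This spread includes a difference between WT and floxed livers, given below. Within each background Hibch did not overlap. It was at 4281 to 4958 with LNA29 against 5080 to 5662 with saline in WT livers (-0.23). In floxed livers it was at 3049 to 3684 against 3791 to 4265 (-0.20). The share of all genes tested that separated so within both backgrounds was not counted. Ivd had -0.13 (interval -0.41 to 0.15), Pcca -0.09 (interval -0.29 to 0.10) and Pccb -0.08 (interval -0.23 to 0.07). The 2 genes with a seed match were those with the values nearest to 0: Acadsb had -0.05 (interval -0.41 to 0.31) and Auh, the gene on the other side of 0, had 0.04 (interval -0.14 to 0.21). The Acadsb value pools opposite differences, -0.19 among WT livers and 0.23 among floxed livers, and whether these differ was not tested. Auh was at 0.04 among WT and 0.05 among floxed livers, and Ivd at -0.18 and 0.02. The intervals of these genes leave room for changes of the size seen for Hibadh in all but Auh and Pccb.

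**Figure D2:**
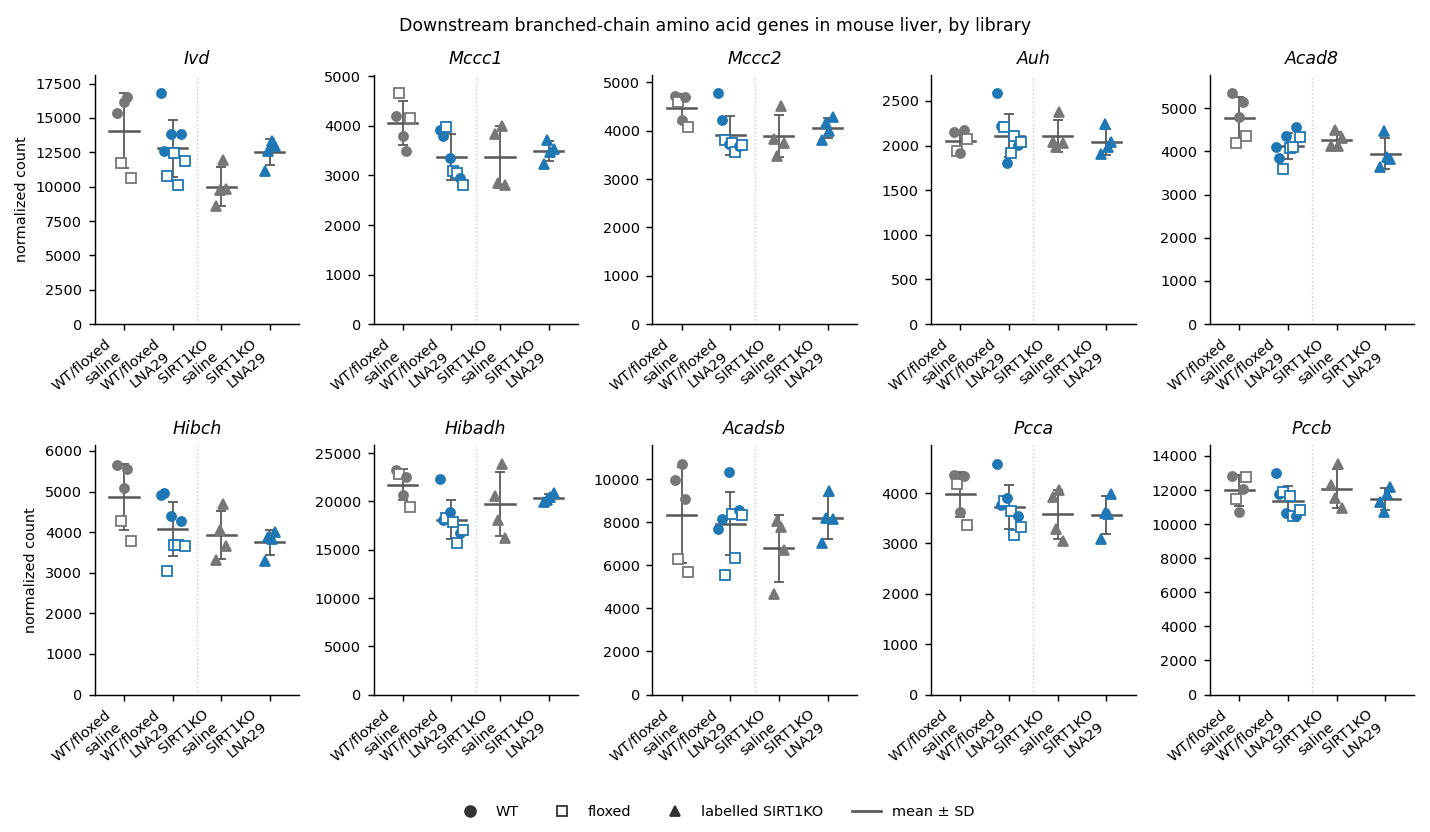
Normalized counts (linear axes from 0) of the 10 genes in each mouse liver, saline in grey and LNA29 in blue, with WT livers as circles, floxed livers as open squares and livers labelled SIRT1KO as triangles; bars give the mean ± SD. Hibadh lies lower in 7 of 8 WT/floxed LNA29 livers than in any WT/floxed saline liver, and for Ivd, Hibch and Acadsb the WT livers lie mostly above the floxed ones.

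The WT/floxed groups pool WT and floxed mice, and Ivd, Hibch and Acadsb differed between them. In the fit with the background beside the treatment, which was read for this purpose after the data were seen, 3 of the 10 genes were called, all lower in floxed than in WT livers, where 14.7% of the 15811 genes tested were called and 7.48% were called lower. The floxed mice were 15 to 20 weeks old and the WT mice 9 to 11 weeks, so background and age cannot be told apart. Without treatment, Ivd was at 15380, 16138 and 16529 normalized counts in the WT livers and at 11719 and 10619 in the floxed livers. With LNA29 it ranged from 12590 to 16815 in WT and from 10144 to 12479 in floxed livers, so that all 7 WT livers lay above all 6 floxed livers. The floxed minus WT difference of Ivd was -0.40 on the log2 scale (SE 0.076, adjusted p = 0.015 by limma). Hibch separated in the same way, with 5662, 5080 and 5564 in WT saline livers against 4265 and 3791 in floxed saline livers, and with 4281 to 4958 against 3049 to 3684 under LNA29. Its difference was -0.41 (SE 0.066, adjusted p = 0.0088 by limma). The share of all genes tested that separated WT from floxed livers in this way was not counted. Acadsb was at 9944, 10718 and 9061 in WT saline livers and at 6288 and 5699 in floxed saline livers. Under LNA29 its backgrounds overlapped, with 7685 to 10341 in WT and 5555 to 8356 in floxed livers, and the difference was -0.45 (SE 0.117, adjusted p = 0.04 by limma). The other 7 genes were not called, with differences from -0.15 (Pcca) to 0.00 (Mccc1).

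The same question in livers labelled SIRT1KO gave no called gene among the 10, where 1.87% of the 15885 genes tested were called by the same criteria. The levels were higher with LNA29 for 5 genes and lower for 5, where 50.5% of all genes tested lay below 0, with a median log2 fold change of 0.03 against 0.00 for all genes tested. By limma 1 of the 10 genes had an unadjusted p under 0.05, Ivd, where 11.2% of all genes tested had one. Ivd was at 8565, 9729, 11949 and 9794 normalized counts in the saline livers and at 11139, 12602, 13344 and 12951 in the LNA29 livers. The highest saline liver, replicate 3, lay above the lowest LNA29 liver, and the others did not overlap. None of the 10 genes was free of overlap, where 6.95% of all genes tested were. The log2 fold change of Ivd was 0.33 (SE 0.110, adjusted p = 0.302 by limma, two-sided exact permutation p = 0.0571), and without saline replicate 3 it was 0.42 (adjusted p = 0.162), past the criteria. Within the 3 run codes it was 0.26 (1 LNA29 and 2 saline livers), 0.46 (1 and 1) and 0.47 (2 and 1).

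Acadsb had a log2 fold change of 0.30 (interval -0.08 to 0.68) in livers labelled SIRT1KO, with 7046 to 9462 normalized counts under LNA29 against 4647 to 8030 under saline. Hibadh, which fell in WT/floxed liver, was at 20371 ± 436 against 19718 ± 3319 (n = 4 each), a log2 fold change of 0.06 (interval -0.19 to 0.32). The 4 LNA29 livers spanned 19936 to 20920 and lay inside the saline range of 16260 to 23929. Mccc1 and Mccc2 each had 0.07, Pcca 0.00, Auh -0.04, Hibch -0.06, Pccb -0.07 and Acad8 -0.12. With 4 livers a group, the smallest two-sided exact permutation p is 0.0286.

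Whether the response to LNA29 differed between WT/floxed livers and those labelled SIRT1KO was tested as an interaction term over 15601 genes, of which 0.0449% were called at an adjusted p under 0.2. None of the 10 genes was called by limma, and 3 had an unadjusted p under 0.05, where 9.14% of all genes tested had one. The SIRT1KO response exceeded the WT/floxed response by 0.46 for Ivd (SE 0.194, adjusted p = 0.453 by limma), by 0.33 for Hibadh (SE 0.137, adjusted p = 0.452 by limma) and by 0.26 for Mccc2 (SE 0.118, adjusted p = 0.499 by limma). A difference between the genotypes was therefore not shown for Hibadh, although it was called in 1 of them. The WT/floxed side pools WT and floxed mice of different ages, and the interaction fit held no term for background. With sample quality weights Ivd, Mccc1, Mccc2 and Hibadh were called, where 7.82% of all genes tested were called at that setting, Hibadh at 0.47 (adjusted p = 0.0818 by limma).

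**Figure D3:**
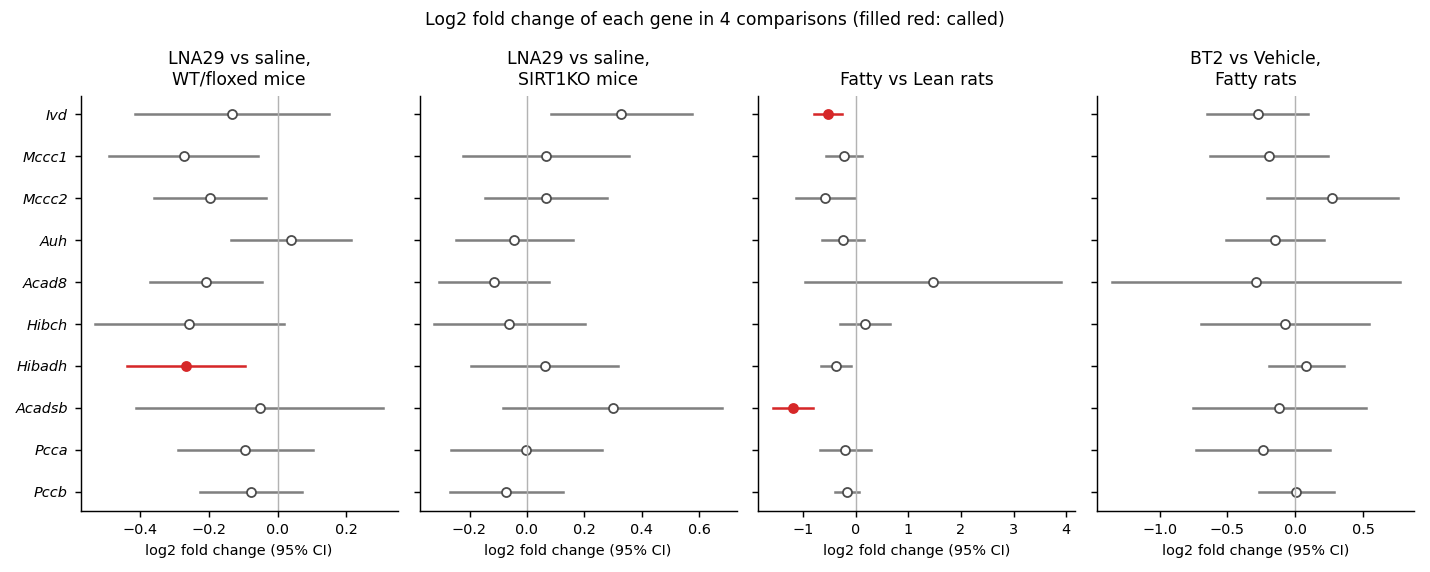
Log2 fold change (points) with its 95% interval (lines) of each of the 10 genes in the 4 comparisons, each panel on its own linear axis; filled red points mark called genes. Hibadh is called in WT/floxed mice (-0.27), Ivd (-0.53) and Acadsb (-1.19) are called in Fatty against Lean rats, and no gene is called in the other 2 comparisons.

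The comparison of Zucker Fatty with Lean rats asks how these genes differ in an obese rat with fatty liver. Acadsb and Ivd, the dehydrogenases of the isoleucine and leucine branches, were lower in Fatty rats. They were 2 of the 10 genes called at an adjusted p under 0.05, both lower, where 4.25% of the 8633 genes tested were called and 2.46% were called lower. The level was lower in Fatty rats for 8 of the 10 genes, where 44% of all genes tested lay below 0, and the median log2 fold change was -0.24 against 0.07 for all genes tested.

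Acadsb was at 221, 228, 169 and 251 normalized counts in Lean rats and at 76.6, 111, 85.7 and 104 in Fatty rats. No Fatty rat reached the lowest Lean rat. Acadsb fell by 1.19 on the log2 scale (interval -1.58 to -0.81, SE 0.171, adjusted p = 0.0042 by limma), to 94.3 ± 15.8 from 217 ± 34.7, and the exact permutation p of 0.0286 is the smallest that 4 against 4 allows. Lean replicates 3 and 4 are shallow libraries in which Acadsb rests on about 16 and 24 reads. Without the libraries under 1 M reads (Lean replicates 3 and 4 and Fatty replicate 3) it was -1.22 (adjusted p = 0.0118). This left Lean replicates 1 and 2, of the same run code, against Fatty replicates 1, 2 and 4, of both run codes. Within the 2 run codes the Acadsb difference was -1.11 and -1.28. It stayed called in all 17 alternatives, at values from -1.38 to -1.10.

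Ivd was at 316, 287, 305 and 240 normalized counts in Lean rats and at 195, 198, 207 and 191 in Fatty rats, again without overlap. It fell by 0.53 on the log2 scale (interval -0.79 to -0.27, SE 0.115, adjusted p = 0.0323 by limma, exact permutation p = 0.0286). The 4 Fatty rats lay within 16 normalized counts of each other, and the Lean rats were wider apart. In the shallow Lean replicates 3 and 4 Ivd rests on about 29 and 23 reads. The direction held within both run codes, at -0.44 and -0.62. Without the libraries under 1 M reads, which again leaves Lean replicates 1 and 2, the value was -0.63 (adjusted p = 0.0261). The call was lost with TMM scaling (-0.53, adjusted p = 0.128), with the replicate number as a block (-0.53, adjusted p = 0.0872) and without any of 7 of the 8 libraries, Lean replicate 4 being the exception, at adjusted p up to 0.105.

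Hibadh also did not overlap between the groups, with 637, 557, 485 and 710 normalized counts in Lean rats and 436, 481, 420 and 478 in Fatty rats. It was not called, with a difference of -0.38 on the log2 scale (SE 0.128, adjusted p = 0.153 by limma), but lies within the limit of 0.2 used for mice, which 10.9% of the genes tested in Fatty against Lean rats passed. Without overlap and lower in Fatty rats were thus 3 of the 10 genes, where this held for 6.68% of all genes tested. Mccc2 had -0.58 (interval -1.14 to -0.02, adjusted p = 0.284 by limma), with 103 to 175 in Fatty and 136 to 302 in Lean rats.

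The carboxylase subunits and the rest of the valine and leucine branches were not called in Fatty rats. Pccb was at 243 ± 9.94 against 274 ± 22.5 (log2 fold change -0.17), Pcca at 55.8 ± 3.88 against 65.8 ± 16.1 (-0.20), Mccc1 at 77.2 ± 9.78 against 90.4 ± 9.42 (-0.23) and Auh at 103 ± 9.12 against 124 ± 31.7 (-0.24). Hibch had 0.17 (interval -0.31 to 0.65). Acad8 had the widest interval, 1.47 (-0.96 to 3.90), because Lean replicate 4 had no read of it, at a depth where 1 read is worth 10.4 normalized counts. Without that library its log2 fold change was 0.13 (adjusted p = 0.785).

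BT2, the inhibitor of the BCKDH kinase, was compared with vehicle in Zucker Fatty rats to see whether the downstream genes differ. These RNA data hold no measure of BCKDH activity. None of the 10 genes was called, as was none of the 8405 genes tested (0%) by limma, of which 3.95% had an unadjusted p under 0.05. None of the 10 genes had such a p. The median log2 fold change was -0.13 against 0.01 for all genes tested, with 7 genes lower and 3 higher, where 49.3% of all genes tested lay below 0. Ivd had the smallest p of them. It was at 316, 368, 352 and 454 normalized counts with vehicle and at 274, 270, 289 and 402 with BT2, and BT2 replicate 4, a library of 0.383 M reads, lay above 3 of the 4 vehicle rats. The log2 fold change of Ivd was -0.28 (interval -0.65 to 0.09, adjusted p = 0.898 by limma, exact permutation p = 0.171).

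Acadsb, lower in Fatty than in Lean rats, was at 146 ± 54.0 with BT2 and 152 ± 34.1 with vehicle, a log2 fold change of -0.12 (interval -0.75 to 0.52). Within this interval a difference of Acadsb between BT2 and vehicle was not detectable at this depth and spread. The intervals were narrowest for Pccb, 0.01 (-0.27 to 0.28), and Hibadh, 0.08 (-0.20 to 0.36). The other log2 fold changes ran from -0.29 (Acad8) to 0.27 (Mccc2), and no gene was without overlap between BT2 and vehicle, where 2.96% of all genes tested were.

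**Figure D4:**
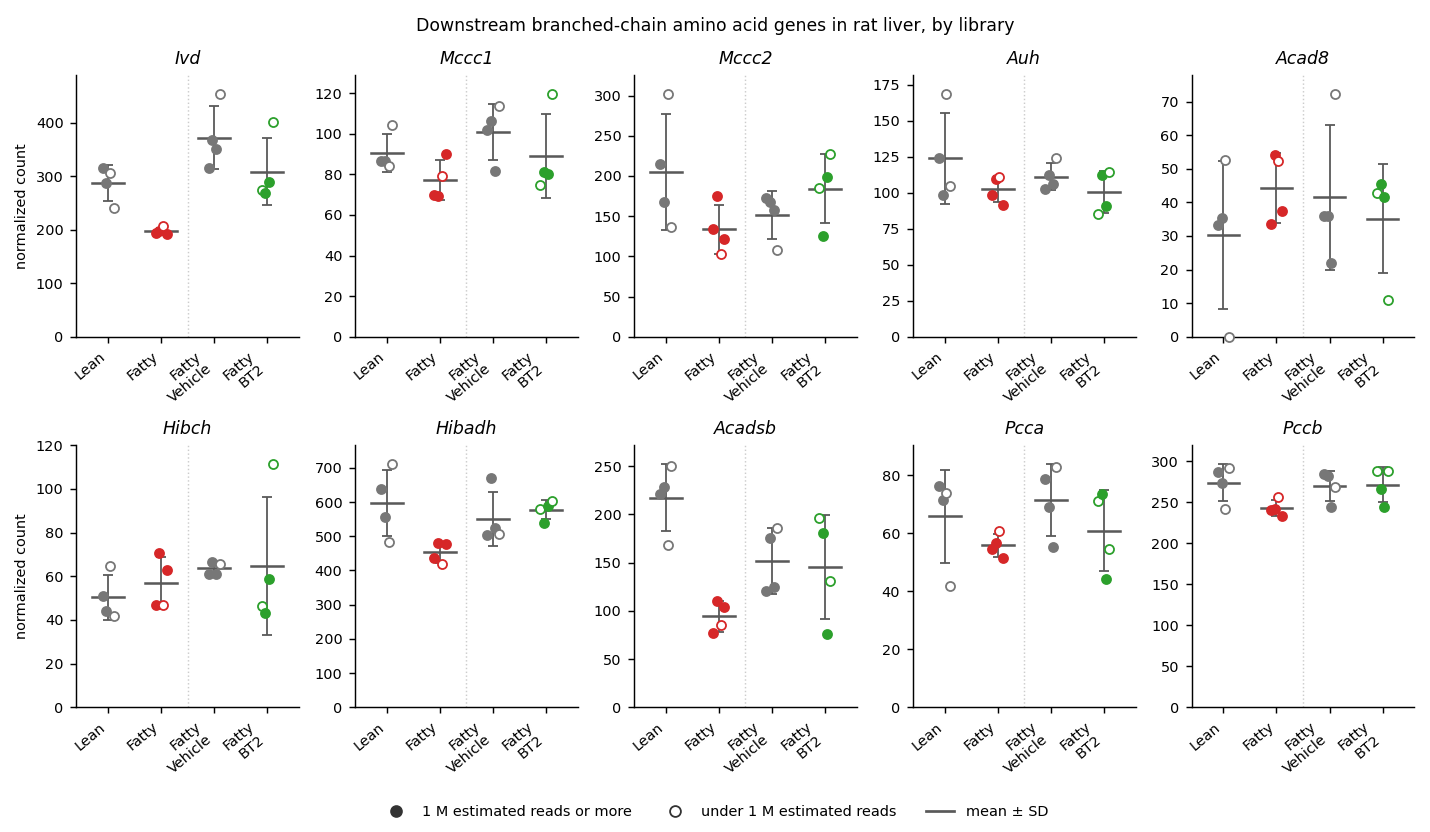
Normalized counts (linear axes from 0) of the 10 genes in each rat liver, Lean and Fatty rats of 5.5 months at the left of each panel and vehicle and BT2 rats of 3 months at the right; open points are libraries under 1 M estimated reads and bars give the mean ± SD. Acadsb and Ivd lie lower in all 4 Fatty rats than in any Lean rat, while BT2 and vehicle overlap for every gene.

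Other genes of the pathway and its neighbours were taken from lists. The shares called of all genes tested were 4.35% in WT/floxed livers, 1.87% in livers labelled SIRT1KO and 4.25% in Fatty against Lean rats. In WT/floxed livers, 0 of the 19 tested genes in the rest of the pathway were called higher and 2 lower, with a median log2 fold change of -0.11. These were Slc25a44, a mitochondrial carrier of branched-chain amino acids, at -0.29 (SE 0.092, adjusted p = 0.154 by limma), and Mmab, which makes adenosylcobalamin for methylmalonyl-CoA mutase, at -0.32 (adjusted p = 0.164). Among 9 other acyl-CoA dehydrogenases Acad10 was called, at -0.53 (adjusted p = 0.0409 by limma), and among 10 other mitochondrial proteins Cs, citrate synthase, at -0.30 (adjusted p = 0.0267), in a list whose median was -0.16, the same as that of the 10 genes described here. In livers labelled SIRT1KO, Dbt, a BCKDH subunit, was called higher at 0.52 (adjusted p = 0.166 by limma) as 1 of 19 genes, and Acadl, a long-chain acyl-CoA dehydrogenase, lower at -0.43 (adjusted p = 0.141) as 1 of 9. In Fatty against Lean rats 0 of 18 genes in the rest of the pathway were called and their median was 0.13. Of 8 other acyl-CoA dehydrogenases Acadm, of medium-chain fatty acid oxidation, was called lower at -0.55 (adjusted p = 0.0319 by limma). The calls of Acadm, Slc25a44, Mmab, Dbt and Acadl were lost without single libraries, in 7 of 8 cases for Acadm, 7 of 13 for Slc25a44, 8 of 13 for Mmab, 6 of 8 for Dbt and 5 of 8 for Acadl. No electron transfer partner of the dehydrogenases (3 genes), other biotin gene (4 tested) or listed regulator was called in any comparison.

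Of the tissue label, the summed level of the hepatocyte markers, 4445600 to 7510660 in WT/floxed livers, was above that of every other cell type listed. Of the 7 tested hepatocyte markers 1 was called higher and 1 lower with LNA29. In the same comparison 4.35% of all genes tested were called and 1.93% were called lower. The macrophage markers (8 genes, 0 called) summed to 7343 to 40601 in WT/floxed LNA29 livers and 13479 to 23653 in saline livers, with a median log2 fold change of -0.43, 1 of 8 endothelial markers (Lyve1) was called lower there, and pancreatic acinar markers reached 917 in 1 saline liver and 187 in an LNA29 liver. In livers labelled SIRT1KO, 2 of 8 macrophage markers (Clec4f and Vsig4) were called lower with LNA29, where 0.68% of all genes tested were. The 8 summed to 13057 to 16402 against 16244 to 19527 under saline. In 1 of the 8 the level was higher, with a log2 fold change of 0.71. There 2 of 8 endothelial markers (Stab1 and Lyve1) were called lower too, while 3 of the 8 were higher. The log2 fold changes of the 8 ran from -1.17 to 0.08, with a median of -0.06. The sums of the 8, 12691 to 13879 against 13969 to 15460, did not overlap. In Fatty against Lean rats 1 of 7 tested endothelial markers (Stab2) was called higher and none of 7 macrophage markers was called. There 3 of 8 hepatocyte markers were called lower and 1 higher, where 4.25% of all genes tested were called and 2.46% were called lower. The 8 summed to 265215 to 355753 against 293084 to 346647. The part of these cell types in the results above was not tested. In bulk liver fewer cells of a type and less RNA per cell cannot be told apart. Estimated depth was 42.6 to 78.0 M reads in mice and 0.188 to 58.5 M reads in rats, where 6 of 16 libraries had under 1 M.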

How the data were processed

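Livers of 21 mice and 16 rats were measured by polyA+ RNA-seq. Per the labels and the study's methods, the authors aligned reads with STAR to mm10 or rn6, quantified them with Salmon and normalized them with DESeq2. The deposited values are these normalized counts, a signal that is comparable within a table. All columns were matched to samples (0 unmatched). Whole reads could not be used, so no count model was run, and depth was estimated from the most frequent value above 0 as the value of 1 read.

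Entries without a name or with a repeated symbol were left out. Genes with a mean of at least 10 were fitted by limma 3.58.1 (R 4.3.3) on log2(normalized count + 1), with Benjamini-Hochberg adjustment over all genes tested. The added 1 draws fold changes of low genes towards 0. A library without a read of a gene can instead widen them, as for Acad8 in Fatty against Lean rats. Mouse calls followed the study's criteria (p under 0.05, adjusted p under 0.2, mean above 50, fold above 1.2), rat calls an adjusted p under 0.05. Exact permutation tests were two-sided. The fit was tested on simulated data. Positions and 3′ UTRs came from GENCODE vM21, and figures were drawn with matplotlib 3.10.9.

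Members, lists and tests were chosen with earlier results of these data known. All 10 members are named in every comparison, with every library for those called or with the smallest p, and up to 2 called genes of each other list. The alternatives tried were TMM scaling, no minimum mean, a pseudocount of 10, sample quality weights, run code, replicate number or background as a term, another limit on the adjusted p, for rats precision weights or no library under 1 M reads, and each library left out. The background term as a result of its own was added after the data were seen. The p-values measure the spread between these livers.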

Additional observations from a re-analysis of the deposited data

Results flagged for a closer look

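Of 80 groups of 4 to 8 livers, 1 gene in 1 group each, 7 held a library that stood apart from the others by Dixon's criterion at 95%, and chance alone flags about 1 group in 20. In livers labelled SIRT1KO, Auh was at 2370 normalized counts in saline replicate 3, where the other saline livers lay between 1985 and 2035. In Lean rats, replicate 4 stood apart for Mccc1 (104 against 84.3 to 86.4) and for Pcca (41.8 against 71.3 to 76.3). This library had 0.189 M estimated reads, and 1 read was worth 10.4 normalized counts. Among BT2 rats, replicate 4 (0.383 M reads) stood apart for Ivd (402 against 270 to 289), Mccc1 (120 against 74.7 to 81.4) and Acad8 (10.9 against 41.5 to 45.4). Among vehicle rats, Hibadh was at 669 in replicate 2, where the others lay between 503 and 523. None of these values belongs to a called gene in its comparison.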

How the results depend on the processing

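The number of the 10 genes called was set against each alternative, with the share of all genes tested that was called at the same setting. In WT/floxed mice it went from 1 (4.35% of all genes) to 0 with no minimum mean (1.36%), the replicate block (0.354%), the background as covariate (6.25%) and an adjusted p under 0.05 (1.3%), to 2 with the run code as covariate (Mccc1 beside Hibadh; 4.24%) and to 3 with sample quality weights (Mccc1 and Hibch beside Hibadh; 8.27%). Leaving out 1 library at a time gave 0 to 2, where 2.41% to 6.37% of all genes were called. The 6.37%, without LNA29 replicate 1, came with 2 of the 10 genes called. In livers labelled SIRT1KO it went from 0 (1.87%) to 1 (Ivd) with sample quality weights (5.06%), and leaving out 1 library gave 0 to 1 (0.485% to 2.68%). In Fatty against Lean rats it went from 2 (4.25%) to 1 (Acadsb) with TMM scaling (3.04%) and with the replicate block (2.56%), where Ivd had an adjusted p of 0.0872, to 3 (Hibadh beside the others) at an adjusted p under 0.2 (10.9%) and to 4 (Hibadh and Pcca beside the others) with sample quality weights (13.5%) and with precision weights (15.5%). Leaving out 1 library gave 1 to 2 (2.6% to 4.4%). The interaction went from 0 (0.0449%) to 4 with sample quality weights (7.82%). The count stayed at 0 for BT2 and at 3 for floxed against WT livers in all 17 alternatives of each. For floxed against WT livers 14.7% of all genes were called in the main fit, and the share is not given for the alternatives. Whether the replicate numbers pair the livers is not stated. The correlation of same-numbered livers ran from -0.349 to 0.282, which does not settle it. The causes of these shifts were not tested. Leaving out 1 library changes the number of libraries as well as which livers are in the fit.

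Directions that turned belong to genes that were not called. For BT2 they include Acad8 and Mccc2, the genes with the lowest and the highest log2 value of that comparison. In livers labelled SIRT1KO, Pcca was at 0.094 with sample quality weights and at 0.014 with the run code. For BT2, Pccb was at -0.018 with TMM scaling, -0.023 with sample quality weights, -0.019 with precision weights and -0.085 without libraries under 1 M reads. Acad8 was at 0.11 with sample quality weights, 0.18 with precision weights and 0.49 without these libraries, Mccc2 at -0.027 with sample quality weights and -0.073 without these libraries, and with sample quality weights Hibadh was at -0.015 and Acadsb at 0.079. The interaction of Pccb was at -0.0073 with TMM scaling, -0.011 with the run code and -0.050 with the replicate block. For floxed against WT livers Pccb was at 0.0034 with TMM scaling and at 0.0057 with sample quality weights.

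Leaving out 1 library at a time also turned the sign of some genes that were not called, within these ranges. The range of log2 values in WT/floxed mice was -0.0038 to 0.071 for Auh and -0.18 to 0.049 for Acadsb. The range of log2 values in livers labelled SIRT1KO was -0.017 to 0.15 for Mccc1, -0.090 to 0.014 for Auh, -0.14 to 0.029 for Hibch, -0.026 to 0.16 for Hibadh and -0.076 to 0.067 for Pcca. The range of log2 values for BT2 was -0.54 to 0.18 for Acad8, -0.37 to 0.080 for Hibch, -0.29 to 0.16 for Acadsb and -0.039 to 0.057 for Pccb. The range of log2 values for the interaction was -0.039 to 0.064 for Pccb. The range of log2 values for floxed against WT livers was -0.055 to 0.050 for Mccc1, -0.098 to 0.0037 for Auh and -0.037 to 0.029 for Pccb.

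In the shallow rat libraries 1 read was worth up to 10.5 normalized counts. This limits what can be said of genes with few reads there, among them Acad8, Hibch, Pcca, Mccc1 and Auh. In Lean replicates 3 and 4, Mccc1 rested on about 8 and 10 reads and Auh on about 16 and 10.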
